A study of Mus musculus with 3 samples.

Results

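The miR-297, miR-466, miR-467 and miR-669 families are rodent microRNAs (miRNAs) made from a long array of repeated hairpins inside an intron of Sfmbt2. Members were taken by name: every mature miRNA of the deposited tables whose name starts with one of these 4 family numbers followed by a letter or a hyphen, on either hairpin arm. This gave 60 of the 1138 listed miRNAs, of which 6 were miR-297, 26 miR-466, 9 miR-467 and 19 miR-669. When members with identical counts in all 3 libraries were taken once, 45 remained. The study injured the tibialis anterior (TA) muscle of mice with cardiotoxin (CTX), a snake toxin that destroys myofibers and starts inflammation and regeneration, and sequenced small RNA at day 0, day 1 and day 3 after injury. All 3 groups were wild-type (WT) C57BL/6 mice at 10 weeks of age. The labels mention saline injection as a control but do not say whether the day 0 mice received it. Each time point was 1 library made from RNA pooled from 4 samples, so no value below has a replicate check, and each test compares the reads of 2 libraries, not the conditions.

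A miRNA hairpin is cut into a short duplex whose arms are named 5p and 3p, and usually only 1 arm is kept in the silencing complex, where its seed, bases 2 to 8, pairs with target mRNAs. Sfmbt2 encodes a polycomb group protein and is an imprinted gene expressed from the paternal allele, and its intronic miRNA array is best known from placenta, early embryo and embryonic stem cells. The hairpins arose by repeated duplication and are rich in alternating UG and CA bases, so that several members differ little or not at all in their mature sequence.

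Mature sequences from RefSeq (GRCm38.p6) were matched to 4 of the 60 members, and they are shown because they carry the repeats that give the families their resemblance. The hairpins of all 4 lie outside Sfmbt2. Capitals mark the seed, and no seed was shared among the 4.
miR-466i-3p: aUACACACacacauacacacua
miR-466j: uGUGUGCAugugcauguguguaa
miR-466k: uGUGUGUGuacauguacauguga
miR-467h: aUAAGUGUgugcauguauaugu
miR-466i-3p (chr13:17747552-17747573, plus strand) held an unbroken alternation of A and C over 11 bases. The U and G alternation reached 9 bases in miR-466k (chr3:85467396-85467418, plus strand) and 7 bases in both miR-466j (chr10:60960802-60960824, plus strand) and miR-467h (chr9:115381898-115381919, plus strand). Around the mature miRNA the repeats went on, as the 122-base Mir466k hairpin (chr3:85467377-85467498, plus strand) shows, in which capitals mark the mature miR-466k at positions 20 to 42 and the longest U and G alternation spans 23 bases.
Mir466k: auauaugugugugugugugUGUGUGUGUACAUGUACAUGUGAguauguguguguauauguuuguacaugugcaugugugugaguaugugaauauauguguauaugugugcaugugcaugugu
These 4 were minor members. miR-466k had 1, 4 and 14 reads at days 0, 1 and 3, miR-466i-3p had 1, 6 and 11 reads, miR-466j had 0, 0 and 1 read, and miR-467h had 0, 1 and 0 reads.

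The array inside Sfmbt2 lies in a single intron. Hairpins were counted by RefSeq names holding a family number followed by a letter. RefSeq placed 70 such hairpins within Sfmbt2 (GRCm38.p6, chr2:10370440-10595253, plus strand) and 9 elsewhere. GENCODE M21 lists 49 miRNA genes under other names within Sfmbt2 on that strand, among them Mir466, whose name has no letter. Whether these overlap the 70 was not checked, and they are not counted here. Of the 70, 29 were miR-669, 22 miR-466, 14 miR-467 and 5 miR-297 hairpins. They ran from Mir466m to Mir669h over 51.6 kb (chr2:10466663-10518279), with a median of 300 bases from the start of a hairpin to that of the next. Among these 70, with Mir466 left out, a miR-467, a miR-466 and a miR-669 hairpin followed each other 11 times. By GENCODE M21 all 70 lay in the intron chr2:10461473-10523944, which is intron 10 of the 23-exon transcript Sfmbt2-201 and intron 11 of Sfmbt2-205, the 2 of 7 annotated transcripts that span the array. A hairpin of the member's name lay in Sfmbt2 for 53 of the 60 members, and 5 members had hairpins elsewhere only. For miR-466a-3p and miR-466a-5p no hairpin named Mir466a was listed, and whether Mir466 is their hairpin was not checked. The number of hairpins behind a name ranged up to 12 for miR-669a, 10 for miR-467a and 8 for miR-466b. The spanning transcripts start inside the annotated gene, Sfmbt2-205 at 1996 and Sfmbt2-201 at 2010 bases from its 5' end. The 250 bases before the start of Sfmbt2-205 (GRCm38.p6, chr2:10372186-10372435, plus strand), which end 14 bases before that of Sfmbt2-201, are printed because a transcript through the intron would carry the 70 hairpins together. Capitals mark CG, a motif that reads the same on both strands and was counted without overlap.
Sfmbt2 promoter: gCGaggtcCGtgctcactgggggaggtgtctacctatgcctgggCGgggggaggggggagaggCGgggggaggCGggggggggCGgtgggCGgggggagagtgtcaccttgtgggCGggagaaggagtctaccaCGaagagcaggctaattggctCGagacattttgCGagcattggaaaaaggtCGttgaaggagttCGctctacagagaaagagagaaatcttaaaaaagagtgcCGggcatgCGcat
It held 15 CG, and the 300-base window that continues 50 bases past the start held 16. Of the 32851 windows of that length in the RefSeq promoter table, 33.0% held as many or more, against a median of 7.

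The libraries held 8507580 miRNA reads at day 0, 6421056 at day 1 and 9795076 at day 3, so that 3 reads correspond to 0.353, 0.467 and 0.306 counts per 1000000 reads (CPM) and 0 reads cannot be told from a level below that. A miRNA was called higher or lower at a fold change of at least 2 in CPM and an adjusted p of at most 0.001 (2-sided Fisher's exact test on reads, Benjamini-Hochberg adjustment over all miRNAs with a read in either library). By this rule 250 of 998 miRNAs (25.1%) were higher and 43 (4.31%) lower at day 1, and 276 of 1056 (26.1%) were higher and 46 (4.36%) lower at day 3. The split depended on the scaling. With median-of-ratios factors 118 were higher and 121 lower at day 1 and 148 higher and 124 lower at day 3, every log2 fold change being shifted by -1.04 and -1.12. The muscle miRNA miR-1a-3p had 233587 CPM at day 0 and 73841 and 88096 CPM at days 1 and 3. Day 0 is the base of both comparisons, so the changes at day 1 and day 3 are not independent of each other.

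The families were read at a low level at day 0 and were upregulated after injury. Their summed level, identical rows added once, was 102.4 CPM at day 0 (95% Wilson interval 95.8 to 109.4), 1375 CPM at day 1 (1346 to 1404) and 1009 CPM at day 3 (989 to 1029). The sum rose 13.4-fold at day 1 (log2 3.75, exact 95% interval 3.65 to 3.85) and 9.85-fold at day 3 (log2 3.30, 3.20 to 3.40). Even at its highest it was 0.137% of all miRNA reads. The number of members with a read was 37 at day 0, 48 at day 1 and 56 at day 3, and the number with at least 100 reads was 2, 11 and 15. These intervals cover counting error only, PCR copies were not removed, and in whole tissue more cells that express a miRNA cannot be told apart from more of it per cell.

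At day 1, 33 of the 49 members tested were called higher and 0 lower, against 25.1% of all miRNAs called higher. With identical rows taken once the count was 27 of 40. At day 3, 33 of 57 were called higher and 0 lower, against 26.1% of all miRNAs, or 27 of 43 with identical rows once. The calls fell on 31 members at both days. miR-466d-3p and miR-466f-3p were called at day 1 but not at day 3, and miR-297b-5p and miR-466n-5p at day 3 but not at day 1. The miR-466d-3p call at day 1 and the miR-466n-5p call at day 3 were lost under each of the 3 other scalings. At an adjusted p of 0.05 miR-466d-3p and miR-466f-3p were called at day 3 too, and miR-297b-5p at day 1. Among members with at least 20 reads over the 3 libraries, 33 of 38 were called higher at each day, where the same floor gave 43.3% of 568 miRNAs at day 1 and 48.6% of 566 at day 3. Of the 38, 6 had 20 reads at day 0, so that most passed the floor only through the injured libraries, and values over them are a description. Their median log2 fold change was 3.65 at day 1 and 3.26 at day 3, beside 1.16 and 1.44 over all miRNAs past the same floor, with 0 reads set to 3. With median-of-ratios factors 29 of 49 members were higher at day 1 and 23 of 57 at day 3, beside 11.8% and 14.0% of all miRNAs. If a coefficient of variation of 0.4 between libraries was assumed, 9 were called at each day, beside 2.81% of all miRNAs at day 1 and 5.11% at day 3. These were miR-297a-5p, miR-297c-5p, miR-466c-5p, miR-467c-5p, miR-669b-5p, miR-669l-5p and the identical rows miR-466b-3p, miR-466c-3p and miR-466p-3p.

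The miR-467 family carried most of the reads. Its summed level was 76.4 CPM at day 0, 956 CPM at day 1 and 603 CPM at day 3, a log2 fold change of 3.65 (3.53 to 3.76) at day 1 and 2.98 (2.86 to 3.10) at day 3. miR-467a-5p, whose name covers 10 hairpins, had 344 reads at day 0, 3738 at day 1 and 3579 at day 3, which is 40.4, 582 and 365 CPM. It was the member with the most reads in every library and held 39.5%, 42.3% and 36.2% of the families' reads. Among all miRNAs it ranked 169th by reads at day 0, 81st at day 1 and 100th at day 3. Its log2 fold change was 3.85 (3.69 to 4.01) at day 1 and 3.18 (3.02 to 3.34) at day 3. The rise did not rest on it, because the other members together went from 61.9 to 793 and 643 CPM, log2 3.68 and 3.38.

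The other miR-467 members followed at lower levels. miR-467e-5p had 168, 1196 and 981 reads at days 0, 1 and 3, or 19.7, 186 and 100.2 CPM, and RefSeq lists a single hairpin of its name. miR-467c-5p had 41, 614 and 847 reads (4.82, 95.6 and 86.5 CPM), and its log2 fold change of 4.31 at day 1 and 4.17 at day 3 was above that of miR-467a-5p. miR-467d-5p had 83, 397 and 311 reads (9.76, 61.8 and 31.8 CPM) and rose by 2.66 and 1.70 on the log2 scale. With these values miR-467d-5p was the second most abundant single-hairpin miR-467 miRNA at day 0 and fell behind miR-467c-5p after injury. miR-467b-5p, known for repressing lipoprotein lipase in macrophages, had 6, 60 and 114 reads, log2 3.73 and 4.04. By the rule for calls, of 9 miR-467 members tested at day 1 and 8 at day 3, the same 7 were higher, beside 25.1% and 26.1% of all miRNAs. Of these, miR-467a-3p and miR-467d-5p lost the call at day 3 with TMM and with median-of-ratios factors, and miR-467d-3p with the latter. miR-467a-3p also lost it without the 10 most abundant miRNAs in the totals and with an assumed coefficient of variation of 0.2.

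The miR-297 family started lowest and rose furthest by its sum, from 4.11 CPM at day 0 to 140.0 CPM at day 1 and 147 CPM at day 3. Its log2 fold change was 5.09 (4.60 to 5.62) at day 1 and 5.15 (4.67 to 5.68) at day 3. miR-297c-5p had 0 reads at day 0, 383 at day 1 and 440 at day 3, or 59.6 and 44.9 CPM after injury. Against the 3-read limit of the day 0 library it was at least 169-fold higher at day 1, and its log2 fold change at day 3 was at least 6.99, counting error in the injured library left aside. The exact 95% lower limits, which include it, were log2 7.10 at day 1 and 6.69 at day 3. In that library miR-297a-5p had 31 reads, and it had 504 and 962 reads after injury (3.64, 78.5 and 98.2 CPM) and rose by 4.43 and 4.75 on the log2 scale (Fisher's exact test, adjusted p = 1.0e-141 and 3.4e-212). It was among the few abundant members whose level was higher at day 3 than at day 1. miR-297b-5p had 4, 12 and 30 reads and passed the rule at day 3 (Fisher's exact test, adjusted p = 1.0e-04) but not at day 1 (adjusted p = 0.0265). Its day 3 call was lost under each of the 3 other scalings.

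The miR-669 family rose from 14.3 CPM at day 0 to 205 CPM at day 1 and 187 CPM at day 3, log2 3.84 (3.57 to 4.12) and 3.71 (3.44 to 3.98). miR-669b-5p led it with 33, 520 and 672 reads (3.88, 81.0 and 68.6 CPM), log2 4.38 and 4.14. miR-669l-5p had 9, 255 and 447 reads (1.06, 39.7 and 45.6 CPM), and its log2 fold change of 5.23 at day 1 and 5.43 at day 3 exceeded that of every other called miR-669 member. miR-669a-5p, of a miRNA described as holding back myogenic differentiation of cardiac progenitors, had 12, 129 and 134 reads (1.41, 20.1 and 13.7 CPM), log2 3.83 and 3.28. These values were a small part of the family sum although 12 hairpins bear the name. miR-669o-5p had 19, 128 and 174 reads and miR-669f-5p 9, 90 and 163, with log2 3.16 and 3.73 at day 1 and 2.99 and 3.98 at day 3.

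Of the members with more than 3 reads at day 0, miR-669c-5p alone was at a lower level in the injured libraries. This member, named after its values were seen, had 11 reads at day 0 and 3 in each injured library, or 1.29, 0.467 and 0.306 CPM. It was not called at day 1 (log2 -1.47, interval -3.95 to 0.45, Fisher's exact test, adjusted p = 0.204) or at day 3 (log2 -2.08, -4.56 to -0.16, adjusted p = 0.0606). With median-of-ratios factors it was called lower at day 3.

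The miR-466 family had the most members and the lowest levels after injury. Its sum went from 7.88 CPM at day 0 to 74.4 CPM at day 1 and 73.5 CPM at day 3, log2 3.24 (2.87 to 3.63) and 3.22 (2.86 to 3.61). miR-466p-5p had 18, 78 and 143 reads and miR-466c-5p 4, 82 and 122 reads, the former rising by 2.52 and 2.79 and the latter by 4.76 and 4.73 on the log2 scale. The row named miR-466f, with no arm in its name, had 1, 34 and 44 reads, an increase of 5.49 at day 1 whose interval ran from 2.92 to 10.84 because of the single read at day 0. miR-466i-5p, whose hairpin lies on another chromosome, had 5, 29 and 29 reads and was called higher at both days (log2 2.94 and 2.33), but at neither with TMM or median-of-ratios factors. miR-466h-3p had 11, 22 and 34 reads and was called at neither day, with log2 1.41 (0.30 to 2.60) and 1.42 (0.41 to 2.55). miR-466l-3p, a miRNA reported to stabilise Il10 mRNA in macrophages, had 0, 0 and 3 reads, which is at the limit of detection.

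**Figure D1:**
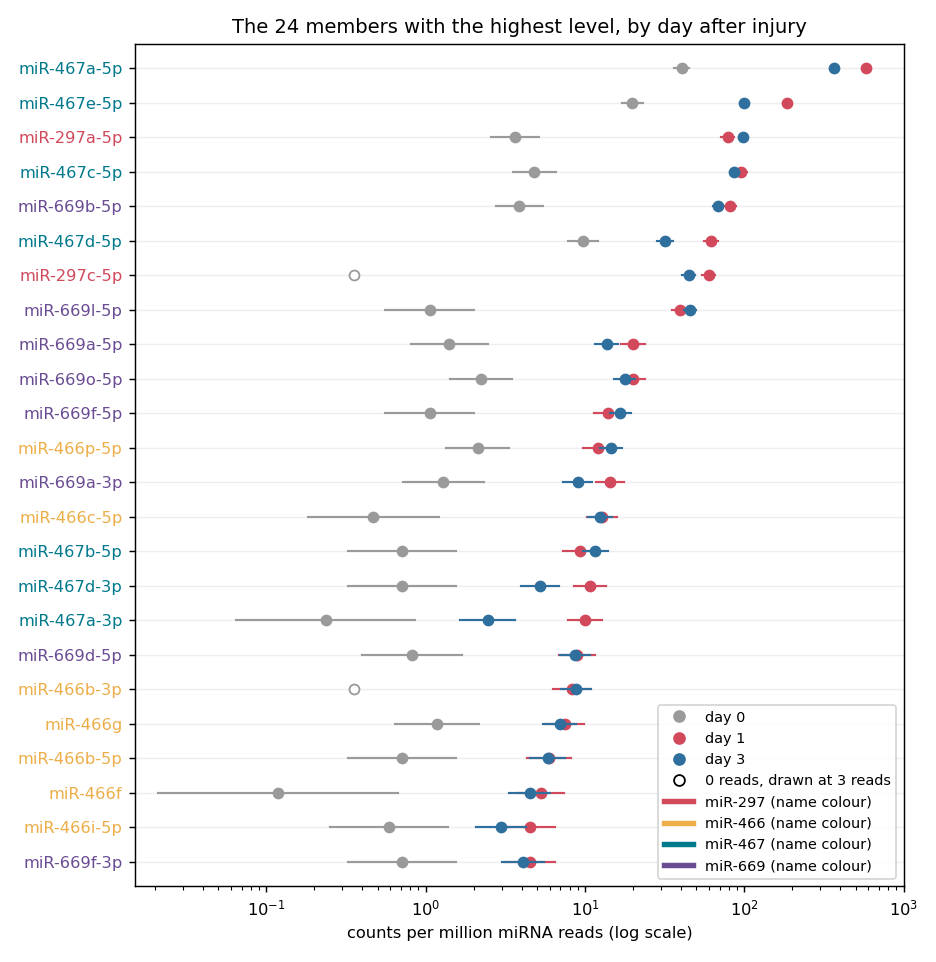
Level in CPM (x, log scale) of the 24 members with the highest level, identical rows drawn once, at day 0 (grey), day 1 (red) and day 3 (blue), with 95% Wilson intervals and the colour of the name giving the family. In every row the grey point lies to the left of both others, from 40.4 CPM for miR-467a-5p to the open circles of members with 0 reads at day 0.

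**Figure D2:**
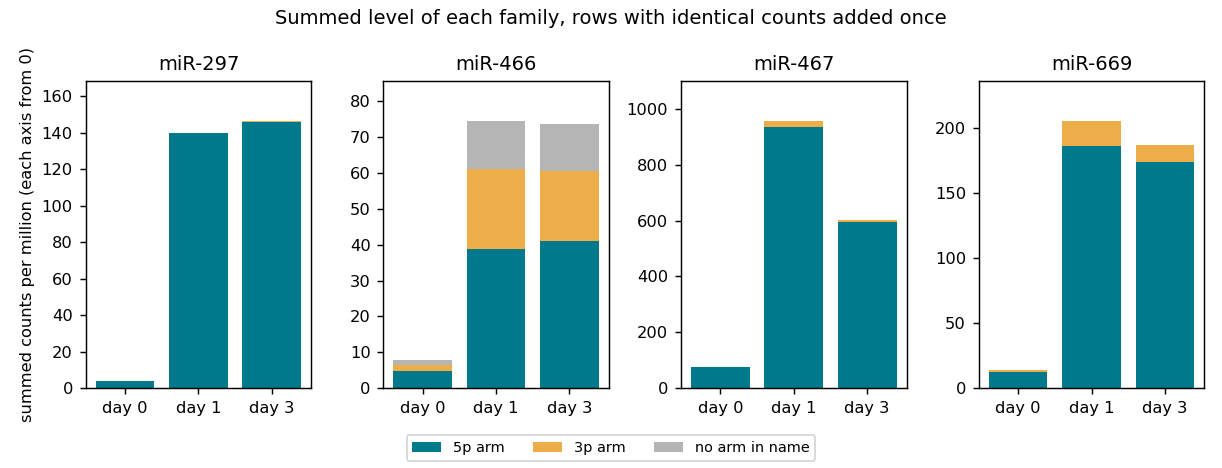
Summed CPM of each family by day (1 library per bar, each axis starting at 0), split into 5p arm, 3p arm and members with no arm in their name. The miR-467 bar falls from 956 CPM at day 1 to 603 CPM at day 3, while the other 3 families change little between these days.

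The families did not move alike between day 1 and day 3. The miR-467 sum fell by 0.66 on the log2 scale (interval -0.72 to -0.61), the miR-669 sum by 0.13 (-0.24 to -0.03), while for miR-466 (log2 -0.02, -0.19 to 0.15) and miR-297 (log2 0.07, -0.06 to 0.19) the interval included 0. The miR-467 interval lay below 0 under each scaling tried. Without the 10 most abundant miRNAs in the totals, the miR-669 value was -0.025 (-0.13 to 0.08) and the miR-297 value 0.17 (0.05 to 0.30). By the rule for calls, 0 members were higher and 2 of 59 lower at day 3 than at day 1, where 9.60% of 1104 miRNAs were higher and 7.16% lower. The pair were the 3p arms miR-467a-3p, with 2, 64 and 24 reads (0.235, 9.97 and 2.45 CPM), and miR-467d-3p, with 6, 69 and 51 reads (0.705, 10.7 and 5.21 CPM). miR-467a-3p fell by 2.02 on the log2 scale from day 1 (-2.77 to -1.33, Fisher's exact test, adjusted p = 2.1e-09) and miR-467d-3p by 1.05 (-1.60 to -0.50, adjusted p = 3.0e-04). Neither was called when a coefficient of variation of 0.2 between libraries was assumed. miR-467e-5p fell by 0.90 (-1.02 to -0.77) and miR-467d-5p by 0.96 (-1.18 to -0.74), just short of the fold threshold, which miR-467d-5p passed with median-of-ratios factors. The change of miR-467a-5p was -0.67 (-0.74 to -0.61). For miR-467c-5p (log2 -0.15, -0.30 to 0.01) and miR-467b-5p (log2 0.32, -0.15 to 0.79) the interval included 0. With the 10 most abundant miRNAs left out of the totals, miR-467a-3p kept its call and miR-467d-3p did not.

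The 5p arm made up the bulk of the reads. Members named 5p summed to 819, 8342 and 9356 reads at days 0, 1 and 3 with identical rows once, against 40, 398 and 400 reads for members named 3p. With each row added singly the 5p sums were 840, 8517 and 9557 reads and the 3p sums 51, 627 and 707, so that the 3p part depends on how identical rows are counted. Both arms were listed for 21 hairpin names. Of those with at least 20 reads on the arms together, 5p had more reads in 7 of 7 names at day 0, 12 of 15 at day 1 and 14 of 17 at day 3. The exceptions at both injured days were miR-466a, miR-466b and miR-466h. For miR-466b 5p held 41.8% of arm reads at day 1 (exact 95% interval 31.5 to 52.6) and 39.9% at day 3 (31.8 to 48.4), and for miR-466h 0% (0 to 15.4) and 15.0% (5.71 to 29.8). At the other end, miR-467e-5p held 99.9% and 99.8% of the reads of its hairpin name. For miR-467a the 5p share was 98.3% at day 1 (97.9 to 98.7) and 99.3% at day 3 (99.0 to 99.6), intervals that do not overlap. For miR-467d the shares were 85.2% (81.6 to 88.3) and 85.9% (81.9 to 89.3), which do overlap. How reads matching several names were entered, which bears on these shares, is not stated.

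Some members shared their counts exactly. Of the 42 members with at least 10 reads in a library, 13 (31.0%) had a partner with identical counts in all 3 libraries, beside 10 of 551 other miRNAs (1.81%). The 6 such groups were miR-669a-5p with miR-669p-5p (12, 129 and 134 reads), miR-669a-3p with miR-669o-3p (11, 92 and 88), miR-466b-5p with miR-466o-5p (6, 38 and 57), miR-466m-5p with miR-669m-5p (3, 8 and 10), miR-466a-3p with miR-466e-3p (0, 27 and 33) and miR-466b-3p with miR-466c-3p and miR-466p-3p (0, 53 and 86). The deposited expression values were identical too within each of the 6. Whether a read that matches several names was entered under each is not stated, and reads of such hairpins cannot be told apart here. Groups with fewer reads, such as miR-297a-3p, miR-297b-3p, miR-297c-3p, miR-466l-3p and miR-669b-3p with 0, 0 and 3 reads each, carry no such information, since 9 other miRNAs had the same counts. Adding each row singly gave 106.1, 1438 and 1061 CPM for the families, a log2 fold change of 3.76 and 3.32.

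Levels varied widely along the array. Taking the 5p or unlabelled member of names with 1 RefSeq hairpin, 18 could be placed. This left out miR-466m-5p and miR-466o-5p, which belong to the groups of identical counts that reach 10 reads. Their 18 names were the only basis for placing them, and copies under other names were not searched. The levels of the 18 at day 1 ranged from 0 to 186 CPM. Neighbouring hairpins could differ. Mir297c and Mir669c are separated by 182 bases, and while miR-297c-5p went from 0 reads at day 0 to 383 and 440, miR-669c-5p went from 11 to 3 and 3. Likewise Mir467e, with 186 CPM of its 5p arm at day 1, starts 285 bases before Mir466p, with 12.1 CPM. miR-669h-5p, of the last of the 70 counted hairpins, had 0, 4 and 0 reads. Members with hairpins outside Sfmbt2 only (miR-466i-3p, miR-466i-5p, miR-466j, miR-466k and miR-467h) summed to 0.823, 6.23 and 5.62 CPM.

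**Figure D3:**
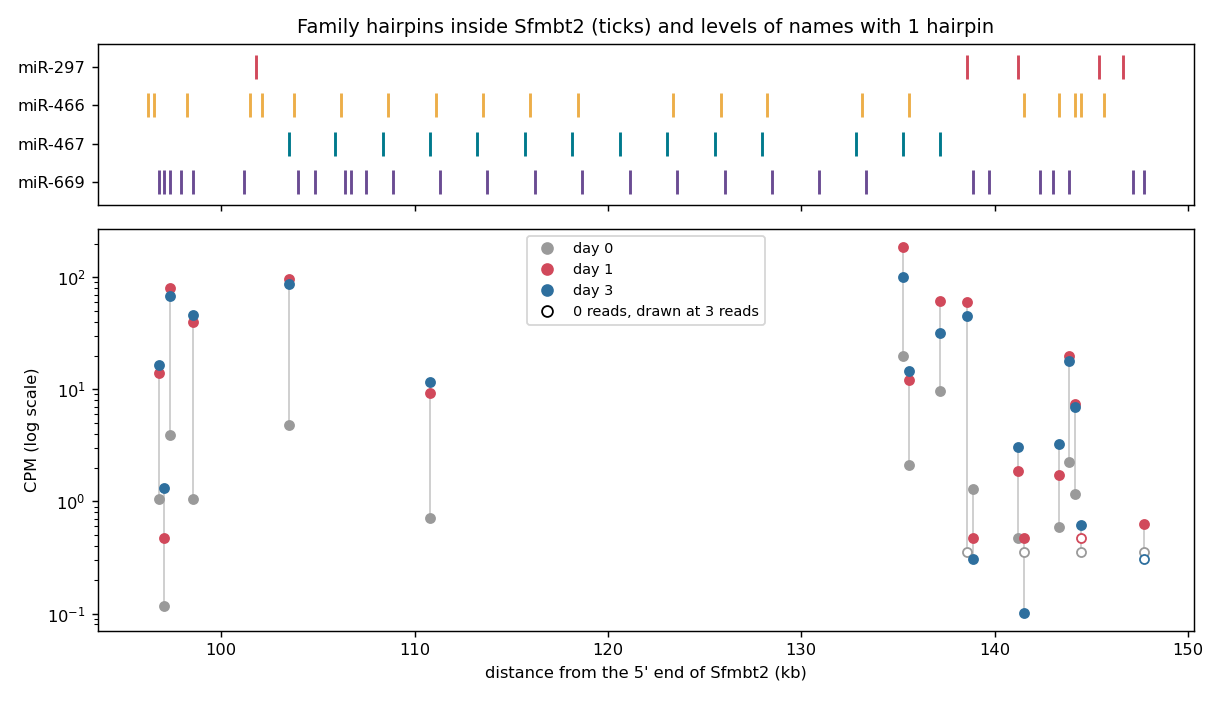
Top, the start of each of the 70 counted RefSeq hairpins inside Sfmbt2 by distance from the 5' end of the gene (x, kb). Bottom, CPM (log scale) of the 5p or unlabelled member of the 18 placed names with 1 hairpin at day 0, day 1 and day 3, with 0 reads drawn open at 3 reads. Neighbours differ widely in level, such as miR-297c-5p and miR-669c-5p near 139 kb.

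Repeat content outside the families and imprinting elsewhere were compared by the same counts. Of the 1078 miRNAs outside the families, 949 had a mature sequence in the RefSeq table to search. In 17 of these the mature miRNA as written contains UGUGUG or ACACAC, of which 5 were higher and 2 lower of 16 tested at day 1 and 7 higher and 1 lower of 16 at day 3, with a median log2 fold change of 0.99 and 2.78 over the 10 with at least 20 reads. Over all miRNAs 25.1% and 26.1% were higher, with medians of 1.16 and 1.44. The 5 called higher at both days are shown with the motif in capitals, overlapping copies merged.
let-7b-5p: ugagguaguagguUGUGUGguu
miR-32-3p: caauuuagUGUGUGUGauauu
miR-362-3p: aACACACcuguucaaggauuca
miR-574-5p: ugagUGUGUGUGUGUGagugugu
miR-672-5p: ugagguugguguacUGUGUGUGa
miR-574-5p, whose U and G alternation of 13 bases was longer than that of the 4 printed members, had 536, 1641 and 4284 reads, log2 2.02 and 2.80. The list also holds the muscle miRNA miR-206-3p, which was lower at day 1 and higher at day 3. Of the 91 miRNAs of the imprinted Dlk1-Dio3 cluster, 2 were higher and 10 lower of 88 tested at day 1, with a median of -0.63, and 36 higher and 6 lower of 89 at day 3, with a median of 1.10. These 2 lists share miR-329-3p, called lower at both days, and miR-493-3p, called higher at day 3. The difference between the lists was not tested.

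Markers of several cell types also changed with injury. The summed level of 5 leukocyte miRNAs, all of them detected in every library, was 5222 CPM at day 0, 20693 at day 1 and 8984 at day 3, but its members went different ways. The myeloid miR-223-3p went from 97.8 to 7815 and 1896 CPM, miR-146a-5p rose from 345 to 2000 and 2524 CPM, and miR-150-5p, most of the sum at day 0, went from 4733 to 8307 and 3197 CPM. miR-142a-3p had 25.2, 1684 and 816 CPM. The 2 erythroid miRNAs summed to 7142, 25326 and 12560 CPM, the 2 endothelial arms of miR-126a to 59427, 132923 and 58732 CPM, and 4 smooth muscle and stromal miRNAs to 35852, 66157 and 28624 CPM. The last sum is mostly miR-143-3p (34278, 62190 and 24829 CPM), while the stromal miR-199a-3p (873, 1831 and 2726 CPM) and miR-214-3p (69.7, 566 and 556 CPM) were still above day 0 at day 3. The 5 myofiber miRNAs made up 27.2%, 9.10% and 27.6% of reads, miR-206-3p providing most of the day 3 value. Of 6 miRNAs of pluripotent cells and trophoblast, in which this array is best known, 4 were in the tables and summed to 0, 11 and 10 reads. The part of these cell types in the rise of the families was not tested.

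The remaining members were rare. Of the 60, 22 had fewer than 20 reads over the 3 libraries, the most being 19, and none of them passed the rule. At an adjusted p of 0.05, miR-466i-3p, miR-466k and miR-669e-5p would have been called higher at day 3 (Fisher's exact test, adjusted p = 0.0182, 0.00344 and 0.00599) and none at day 1. They included 3p arms of every family and miR-466i-3p, miR-466k, miR-669c-5p and miR-669e-5p, each with more than 10 reads in all. miR-669m-3p was the only member with its reads confined to day 0, a single read. Of the members with 20 reads or more, 3 were called at neither day, namely miR-466h-3p and the identical pair miR-466m-5p and miR-669m-5p.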

How the data were processed

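Total RNA of TA muscle was size-selected for 18 to 30 nt small RNA and sequenced at 1 library per time point, each pooled from 4 samples. The authors aligned reads to GRCm38.p6 (the submitters' processing notes name HISAT and Bowtie2) and deposited a read count per miRNA. How reads matching several miRNAs were entered is not given in the sources used here. The deposited expression value is a whole-number score equal to or below the reads, and how the authors made it is not stated. Counts were divided by the library total to give CPM. Each pair of libraries was compared by Fisher's exact test with the fold and adjusted p thresholds of the study, as designed for libraries without replicates. Log2 intervals are exact conditional binomial intervals. Named members were the 24 with the highest CPM, the largest changes per family, those at 0 at day 0 with at least 100 reads later, identical rows and both arms of these hairpins, and others named were chosen after their values were seen. The members and lists were chosen with earlier results of these data known. Alternatives were TMM (edgeR 4.0.16) and median-of-ratios (DESeq2 1.42.0) factors, totals without the 10 largest miRNAs, read minimums, 1 CPM added, other thresholds, and an edgeR test in which libraries were taken to vary by a coefficient of 0.2 or 0.4. In simulated data, 200 miRNAs with at least 100 reads at day 0 were set 4-fold up or down before shares were rescaled. Of these, 197 of 200 were recovered at day 1 and 183 of 200 at day 3. Only 2 members had 100 reads at day 0, so the recovery does not cover members at lower levels. With 1 library per time point, the simulation could draw on no measured variation between mice. Python 3.11.15, scipy 1.17.1 and R 4.3.3 were used, with RefSeq and GENCODE M21 for positions and sequences.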

Additional observations from a re-analysis of the deposited data

Results flagged for a closer look

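The change from day 0 differed between day 1 and day 3 for a pair of miR-467 members, by the test of day 3 against day 1 itself. miR-467a-3p was 2.02 lower on the log2 scale at day 3 (log2 -2.02; 64 reads at day 1 and 24 at day 3), and miR-467d-3p changed by -1.05 (69 and 51 reads). Each day was 1 library, and both calls were lost when a coefficient of variation of 0.2 between libraries was assumed. Of the 5p partners, miR-467d-5p passed the fold threshold only with median-of-ratios factors and miR-467a-5p under none of the alternatives tried.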

How the results depend on the processing

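Each value rests on 1 pooled library per time point, so the spread between mice is unknown, and at 6421056 to 9795076 reads members under 3 reads cannot be ranked. Members called higher outnumbered those called lower at both days under every alternative tried, and 0 were called lower at day 1 under any of them. Counts of members called higher fell from 33 to 13 of 14 tested at each day with at least 10 reads required in both libraries (all miRNAs 45.0% at day 1 and 48.2% at day 3), to 11 of 11 at day 1 and 15 of 15 at day 3 with 100 reads required in 1 of them (51.4% and 57.4%), and to 9 at each day with an assumed coefficient of variation of 0.4. The read minimums do so by testing fewer members. Since 2 members had at least 100 reads at day 0, most passed that minimum only through the injured libraries. The counts at 100 reads are therefore a description. Median-of-ratios factors added 1 member called lower at day 3. Between day 3 and day 1 the 2 members called lower became 1 with the 10 largest miRNAs left out of the totals, with 1 CPM added or with a fold of 4, and 0 with 100 reads required or with variation of 0.2 or 0.4 assumed between libraries, but 3 under median-of-ratios scaling, which added miR-467d-5p, and 3 at an adjusted p of 0.05, which added miR-466f-3p. The log2 fold changes of the summed levels moved with the scaling but stayed above 0. For all members they were 2.80 and 2.37 (day 1, day 3) under TMM scaling, 2.71 and 2.18 under median-of-ratios scaling, 3.13 and 2.79 without the 10 largest miRNAs, and 3.11 and 2.98 from the deposited expression values. In the same order miR-297 gave 4.14 and 4.23, 4.05 and 4.03, 4.47 and 4.65, and 4.50 at day 1. miR-466 gave 2.30 and 2.30, 2.20 and 2.10, 2.62 and 2.71, and 2.63 at day 1. miR-467 gave 2.70 and 2.05, 2.60 and 1.86, 3.03 and 2.47, and 3.00 and 2.66. miR-669 gave 2.90 and 2.78, 2.80 and 2.59, 3.22 and 3.20, and 3.20 and 3.38. Between day 3 and day 1, in a comparison added after seeing the data, the totals without the 10 largest miRNAs moved the interval of the miR-297 sum above 0 (log2 0.17) and that of the miR-669 sum to include 0 (log2 -0.025). The cause of these shifts was not tested. Of 66 changes of named members, 6 lost their call under TMM scaling, 11 under median-of-ratios scaling and 41 with an assumed coefficient of variation of 0.4. The 66 include changes that were not called and had no call to lose, such as those of miR-466i-3p and miR-466m-5p at both days. No paired analysis was possible because each time point was 1 library.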
